A study of Rattus norvegicus with 12 samples.

Results

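The collagen gene family was taken as every row of a gene count table whose symbol is built like Col1a1, that is Col, a type number, the letter a and a chain number. The rule found 44 of 32545 rows with 43 symbols, because Col23a1 has 2 rows under different Ensembl numbers. Of the 44 rows, 11 encode fibrillar chains, 5 encode the type IV chains of basement membranes and 28 encode other chains. The table holds 12 RNA-seq libraries in 4 groups of 3 biological replicates each, all from cultured rat heart cells labelled cardiac fibroblasts. GS_diff2 are GS cells given CMM medium plus EGM2 solution, with the treatment label cardiomyocyte/endothelial differentiation. GS_diff1 are GS cells given CMM medium, with the treatment label cardiomyocyte differentiation. GS are the undifferentiated cells of the genotype given as immortalized GS, derived with the transcription factors Sall4 and Gata4 delivered by virus. RCF are the untreated parental fibroblasts of WT genotype that served as controls. Animal strain, age and sex, the viral promoter, the number of GS clones and the culture times are not stated in the labels. No GS culture matched in time or density to GS_diff1 or GS_diff2 is named, so medium and culture time cannot be told apart.

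Collagens are secreted proteins whose chains wind into a triple helix. Fibrillar collagens (types I, II, III, V, XI, XXIV and XXVII) assemble into the fibrils that give tissue its tensile strength, and type IV forms the sheet-like network of basement membranes. Other types link or coat fibrils, form beaded filaments or short networks, or stay anchored in the cell membrane. In the heart, fibroblasts are the main source of fibrillar collagen, and its excess is the substance of fibrosis.

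The libraries held 16255682 to 23117864 counts. A floor of 3 counts corresponded to 0.127 to 0.193 CPM, the normalised read count scaled to a common library size that is the unit of all levels given here, and covers counting error only. The virally delivered factor Sall4 had 1328 to 1541 counts in GS_diff2 libraries, 3980 to 4705 in GS_diff1, 3689 to 5363 in GS and 0 in each RCF library, although the treatment field names viral Sall4 and Gata4 for all 12 samples. Gata4, the other factor, averaged 285 ± 3.89 CPM in GS_diff2, 495 ± 6.96 in GS_diff1, 595 ± 7.21 in GS and 206 ± 3.43 in RCF (SD, n = 3 each). The summed level of 8 fibroblast markers was 26551 to 26942 CPM in GS_diff2, 20603 to 21267 in GS_diff1, 34798 to 36832 in GS and 13708 to 13910.0 in RCF. Most of that sum was Fn1, the matrix protein fibronectin, which averaged 19344 CPM in GS_diff2, 15128 in GS_diff1, 29814 in GS and 7697 in RCF. Of the 8 markers, 3 were higher and 4 lower in GS against RCF, where 71.3% of all genes were called, 35.0% higher and 36.3% lower. Counts were 1 higher and 6 lower in GS_diff1 against GS (32.0% and 32.3% of all genes), and 3 and 4 in GS_diff2 against GS (33.3% and 33.7%). Between the media, 5 were higher and 2 lower in GS_diff2 (32.1% and 31.5%). Pdgfra, Vim and Thy1 were present in all groups, while the cardiac fibroblast factor Tcf21 averaged 0 CPM in GS_diff2, 0.0830 in GS_diff1, 0.395 in GS and 18.5 in RCF. The 4 markers lower in GS than in RCF were Tcf21, Ddr2, Fap and S100a4. The other marker lists covered 6 cell types. Leukocyte markers summed to 3.32 to 4.33 CPM in GS_diff2, 2.57 to 3.42 in GS_diff1, 0.837 to 1.39 in GS and 37.1 to 37.9 in RCF, and Adgre1 and Tyrobp were at 0 in all 3 groups of GS origin. Epithelial and mesothelial markers summed to 794 to 812 CPM in GS_diff2, 2243 to 2263 in GS_diff1, 600.4 to 618 in GS and 6.92 to 8.57 in RCF, with Krt18 at 0 in RCF. Of the 6 tested, 5 were higher and Upk3b was lower in GS against RCF (35.0% and 36.3% of all genes). In GS_diff2 against GS, 3 were higher and 2 lower (33.3% and 33.7%). In GS_diff2 against GS_diff1, 1 was higher and 5 were lower (32.1% and 31.5%). Chondrocyte markers summed to 424 to 430.2 CPM in GS_diff2, 302 to 306 in GS_diff1, 188 to 193 in GS and 19.6 to 23.9 in RCF, with Matn1 at 0 in all libraries. Acan, the core protein of a cartilage proteoglycan, was most of that sum in GS_diff2, and the other members did not share its order. Of the 7 tested chondrocyte markers, 1 was higher and 5 lower in GS_diff2 against GS_diff1 (32.1% and 31.5% of all genes), with a median log2 difference of -0.88. In GS_diff2 against GS, 3 were higher and 3 lower (33.3% and 33.7% of all genes), with a median of -0.80. Cardiomyocyte markers summed to 35.9 to 37.9 CPM in GS_diff2, 9.37 to 12.1 in GS_diff1, 2.94 to 3.07 in GS and 15.8 to 16.8 in RCF. The members did not all share that order. Of the 4 tested, 2 were higher and 1 lower in GS_diff2 against GS (33.3% and 33.7% of all genes). In GS_diff2 against GS_diff1, 2 were again higher and 1 lower (32.1% and 31.5% of all genes). Endothelial markers, of which 5 had a row, summed to 13.6 to 22.7 CPM over all libraries. Most of that sum in GS and RCF was Tek, at means of 12.2 and 13.0 CPM. Of the 3 tested endothelial markers, 1 was higher and 1 lower in GS_diff2 against GS_diff1 (32.1% and 31.5% of all genes). Schwann and neural markers summed to 2.51 to 14.7 CPM over all libraries. The part that these markers have in the collagen differences was not tested. In bulk RNA, fewer cells of a type and less RNA per cell cannot be told apart.

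Collagen transcripts made up a large share of the RNA in every group, and that share was lowest in GS_diff2, an order that rests on Col1a1. They took 4.89 to 4.95% of all counts in GS_diff2 libraries, 7.08 to 7.34% in GS_diff1, 6.60 to 6.86% in GS and 5.72 to 6.07% in RCF. The summed level was 48523 ± 202 CPM in GS_diff2, 71753 ± 1393 in GS_diff1, 70086 ± 1475 in GS and 57494 ± 1801 in RCF (SD, n = 3 each). A value after ± is an SD over 3 libraries for levels and a standard error for differences. In summed CPM, the GS_diff2 libraries lay below all others and the RCF libraries next above them, while those of GS_diff1 and GS overlapped. As shares of all counts, GS_diff1 lay above GS without overlap, so the order of GS_diff1 and GS depends on the scaling. Without Col1a1, the most abundant chain, the sum was 30382 CPM in GS_diff2, 37010.0 in GS_diff1, 45725 in GS and 29200.0 in RCF, so that GS stood highest and GS_diff2 was no longer lowest but overlapped RCF.

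The classes differed in which group stood highest. The fibrillar sum was 27197 ± 106 CPM in GS_diff2, 54073 ± 913 in GS_diff1, 42622 ± 1659 in GS and 40402 ± 1599 in RCF (SD, n = 3 each), lowest in GS_diff2 and highest in GS_diff1, with GS and RCF overlapping. The first place of GS_diff1 rests on Col1a1. Without that gene, GS_diff1 and GS libraries overlapped, and GS_diff2 was still lowest. For type IV the sum was 8233 ± 166 CPM in GS_diff2, 11571 ± 465 in GS_diff1, 19606 ± 389 in GS and 12785 ± 219 in RCF, highest in GS and lowest in GS_diff2, without overlap between any groups. The other types summed to 13093 ± 78.3 CPM in GS_diff2, 6109.6 ± 105 in GS_diff1, 7858 ± 149.8 in GS and 4307 ± 33.0 in RCF, again without overlap, and GS_diff2 stood highest. That place rests on type VI, which alone summed to 10407 ± 42.7 CPM in GS_diff2, 3385 ± 76.9 in GS_diff1, 4807 ± 66.0 in GS and 2548 ± 29.1 in RCF. Without type VI, the other types were highest in GS. Per transcript length (CPM per kb), the other types were 33.1 ± 0.219% of summed collagen in GS_diff2, 9.94 ± 0.0854% in GS_diff1, 13.9 ± 0.430% in GS and 10.1 ± 0.283% in RCF. Most of that share in GS_diff2 was type VI, at 26.9 ± 0.103% of summed collagen, against 9.16 ± 0.264% in GS.

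**Figure D1:**
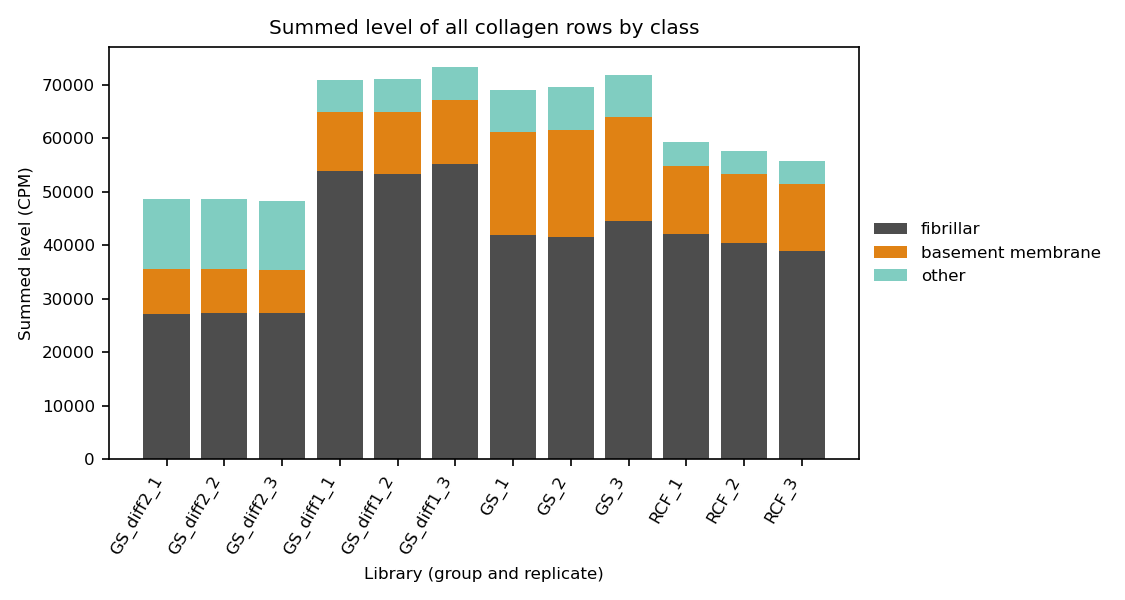
Stacked bars give the summed level of all 44 collagen rows in each of the 12 libraries (CPM, vertical axis), split into fibrillar, basement membrane and other types. The 3 GS_diff2 bars are the shortest, at 48290.4 to 48655 CPM, and have the largest part of other types.

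Ranked per transcript length, Col1a1 was the most abundant collagen transcript in all 4 groups. Its level was 3114 ± 15.2 CPM per kb in GS_diff2, 5964 ± 173 in GS_diff1, 4182 ± 141 in GS and 4857 ± 79.4 in RCF (SD, n = 3 each). The order behind it differed. In GS_diff2 the next were Col6a1 at 1198 ± 12.3 and Col6a2 at 1091 ± 10.7 CPM per kb. Col3a1 came second in GS_diff1 at 1802 ± 66.5 and in GS at 2391 ± 7.22 CPM per kb. In RCF, Col4a1 came second at 1224 ± 18.9 and Col3a1 next at 1119.8 ± 19.8 CPM per kb.

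**Figure D2:**
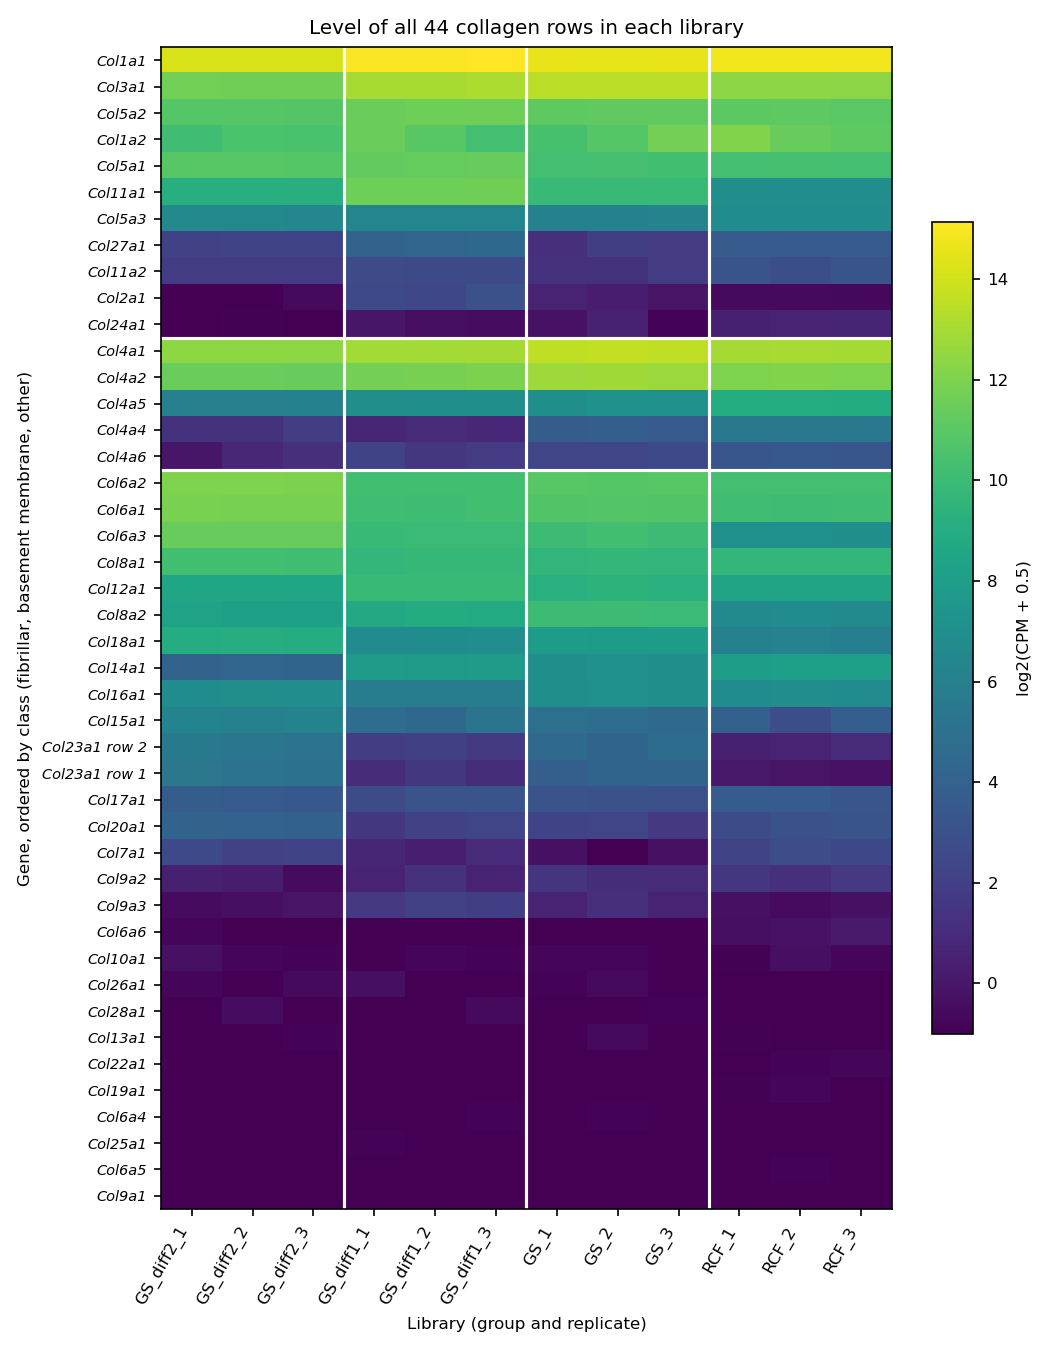
Colours give the level of each collagen row (log scale of CPM) in each of the 12 libraries, with rows grouped by class. Replicates of a group look alike in most rows, and the lowest rows of the other types are at or near 0 counts.

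Low counts kept 11 rows out of testing, all among the other types, so the statements on tests concern 33 rows. Each comparison is an edgeR quasi-likelihood test with Benjamini-Hochberg adjustment over the 14399 genes tested. A row was called higher or lower at an adjusted p under 0.05, and differences are on the log2 scale. In GS against RCF, 29 of the 33 tested collagen rows were called (87.9%), with 71.3% of all tested genes called. Of these rows, 17 were higher and 12 lower, where 35.0% and 36.3% of all genes were. The median difference was 0.12 over the collagen rows and -0.03 over all genes. In GS_diff1 against GS, 13 rows were higher and 13 lower (78.8% called), while 64.3% of all genes were called, 32.0% higher and 32.3% lower. In GS_diff2 against GS, 14 were higher and 17 lower (93.9%), while 67.0% of all genes were called, 33.3% higher and 33.7% lower. In GS_diff2 against GS_diff1, 14 were higher and 18 lower (97.0%), while 63.7% of all genes were called, 32.1% higher and 31.5% lower. Most genes were called in each comparison, and the collagen counts are to be read against these shares.

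By class, 11 fibrillar, 5 type IV and 17 other rows were tested. In GS_diff1 against GS, 8 fibrillar rows were higher and 1 lower, no type IV row was higher and 4 were lower, and 5 other rows were higher and 8 lower (32.0% and 32.3% of all genes). In GS_diff2 against GS, 3 fibrillar rows were higher and 6 lower, all 5 type IV rows were lower, and 11 other rows were higher and 6 lower (33.3% and 33.7% of all genes). In the direct comparison of GS_diff2 with GS_diff1, 1 fibrillar row was higher and 9 lower, 1 type IV row was higher and 4 lower, and 12 other rows were higher and 5 lower (32.1% and 31.5% of all genes). In GS against RCF the classes were mixed, with 4 fibrillar rows higher and 4 lower, 2 type IV rows higher and 3 lower, and 11 other rows higher and 5 lower (35.0% and 36.3% of all genes). The 72.7% of fibrillar rows called there was near the 71.3% of all genes. Changes of at least 2-fold made up 8 higher and 12 lower rows in GS_diff2 against GS, where 11.3% of all genes were higher and 10.2% lower by as much. In GS_diff1 against GS they made up 7 higher and 5 lower rows, where 8.38% and 9.79% of all genes were. In GS_diff2 against GS_diff1 they made up 10 higher and 10 lower rows, where 10.7% and 8.31% of all genes were. In GS against RCF they made up 10 higher and 6 lower rows, where 14.2% and 11.7% of all genes were. Both medium groups are set against the same GS libraries.

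**Figure D3:**
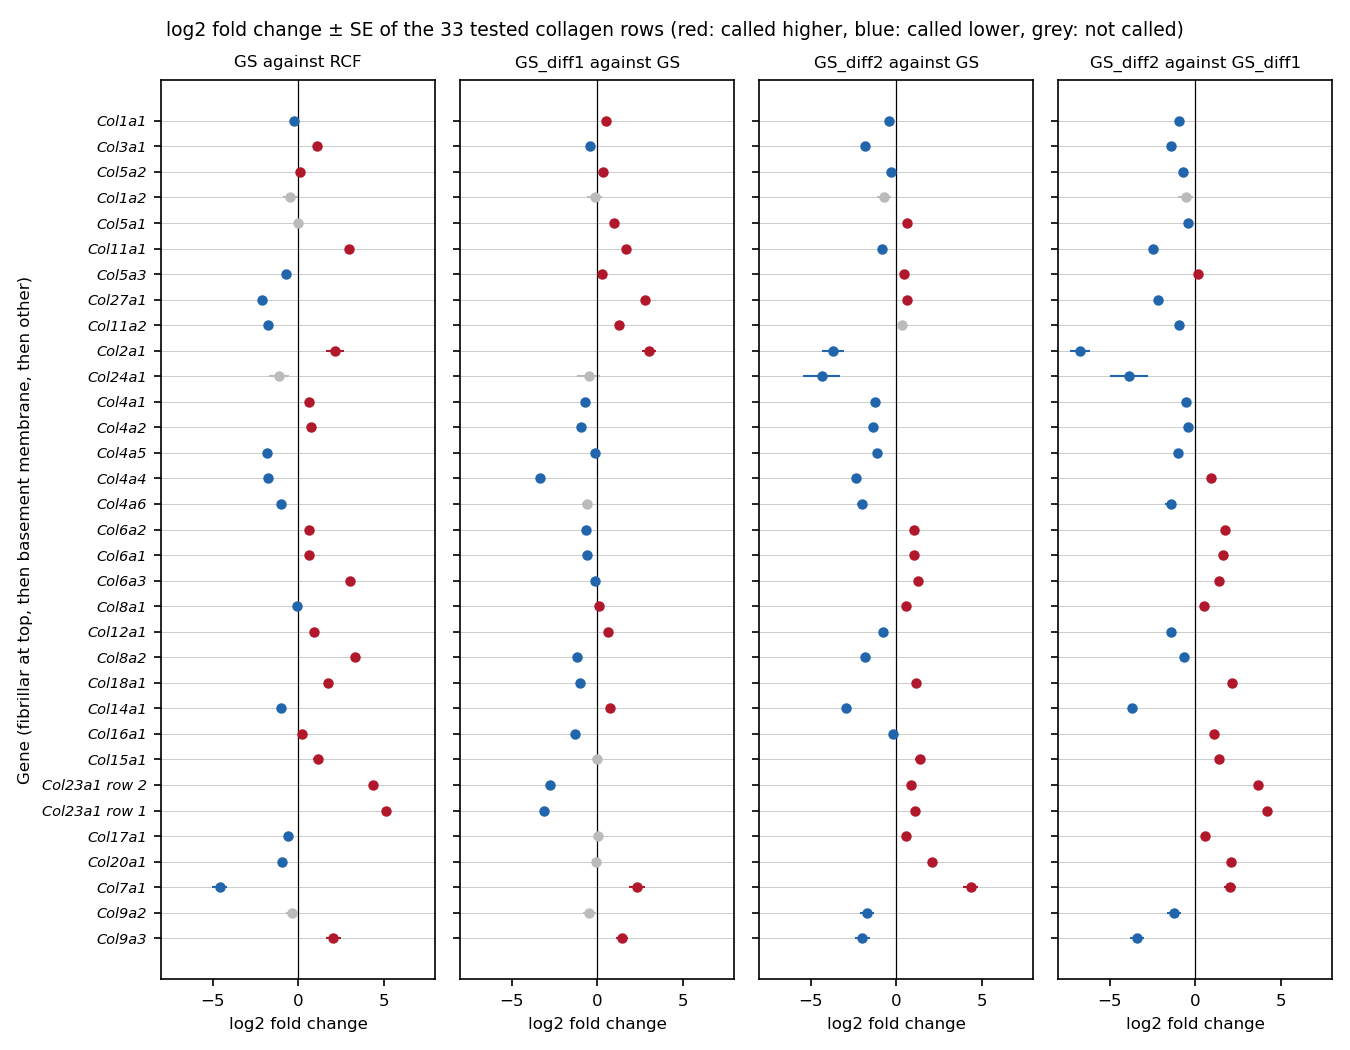
Points give the log2 difference of each tested collagen row with its standard error in the 4 main comparisons, grouped by class. Type IV rows lie at or below 0 in both media against GS, and Col6a1, Col6a2 and Col6a3 lie above 0 in GS_diff2 against GS.

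Types I and III are the main collagens of heart muscle and scar, where type I gives stiff, thick fibrils and type III thinner, more compliant ones. Col1a1 (chr10:82745801-82762789, plus strand, in Rnor_6.0, the rat build named in the submitters' processing notes) encodes the chain present in 2 copies in each type I molecule. Its level was 18144, 18052 and 18229 CPM in GS_diff2, 34149, 34172 and 35908 in GS_diff1, 24503, 23479 and 25102 in GS, and 28582, 28539.7 and 27761 in RCF. No groups overlapped, and the order from high to low was GS_diff1, RCF, GS and GS_diff2. The difference was -0.43 ± 0.02 (SE, adjusted p = 3.85e-14) for GS_diff2 against GS, 0.51 ± 0.02 (SE, adjusted p = 1.26e-15) for GS_diff1 against GS and -0.22 ± 0.02 (SE, adjusted p = 7.26e-09) for GS against RCF.

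Col3a1 encodes the single chain of type III collagen. Its level was 3264, 3214 and 3181 CPM in GS_diff2, 8333, 8484 and 8941 in GS_diff1, 11357, 11394 and 11426 in GS, and 5380.3, 5399.6 and 5227 in RCF. GS stood highest, GS_diff1 second, RCF next and GS_diff2 lowest, without overlap. The level in GS was 2.13-fold that in RCF (log2 1.09 ± 0.02 SE, adjusted p = 3.66e-27), and the level in GS_diff2 was 3.54-fold lower than in GS (log2 -1.82 ± 0.02 SE, adjusted p = 3.63e-32). Col3a1 and Col1a1 thus moved apart in GS_diff1, where Col3a1 was lower than in GS, at -0.41 ± 0.02 (SE, adjusted p = 3.49e-16) and Col1a1 higher. Per length, the ratio of Col3a1 to Col1a1 was 0.213 to 0.220 in GS_diff2, 0.298 to 0.304 in GS_diff1, 0.556 to 0.593 in GS and 0.230 to 0.231 in RCF, so it was highest in GS.

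Col1a2 encodes the second chain of type I collagen. Its level was 1147, 1505 and 1473 CPM in GS_diff2, 2803, 2001 and 1271 in GS_diff1, 1378, 1909 and 3452 in GS, and 4402, 2667 and 2201 in RCF. Replicates of a group lay far apart, by a factor of up to 2.51 in GS, and all groups overlapped except GS_diff2 and RCF. The mean coefficient of variation over the groups was 34.4%, the sixth highest among 2036 genes of at least 100 CPM, whose median was 2.86%. The test was not passed in GS_diff2 against GS (log2 -0.71 ± 0.43 SE, adjusted p = 0.177), in GS_diff1 against GS (log2 -0.15 ± 0.42 SE, adjusted p = 0.786) or in GS against RCF (log2 -0.46 ± 0.42 SE, adjusted p = 0.359). The ratio of Col1a1 to Col1a2 per length ran over 9.22 to 12.2 in GS_diff2, 9.36 to 21.7 in GS_diff1, 5.59 to 13.7 in GS and 4.99 to 9.69 in RCF libraries. Col1a1 itself differed little between replicates, with a coefficient of variation of 2.10%. A second row annotated as the type I alpha-2 chain, outside the naming rule, held 28 to 310 counts per library, and how reads were divided between the rows is not given.

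The promoter of Col1a2 is printed because this gene had the largest spread between replicates among collagens of at least 100 CPM. It is the RefSeq window of 300 bases in GRCr8 at chr4:33518307-33518606, plus strand, from 250 bases before the transcript start to 50 after it. Capitals mark matches on either strand to the CCAAT box (CCAAT or its reverse ATTGG), the TATA box (TATAAA or its reverse TTTATA) and the GC box (GGGCGG or its reverse CCGCCC).
Col1a2: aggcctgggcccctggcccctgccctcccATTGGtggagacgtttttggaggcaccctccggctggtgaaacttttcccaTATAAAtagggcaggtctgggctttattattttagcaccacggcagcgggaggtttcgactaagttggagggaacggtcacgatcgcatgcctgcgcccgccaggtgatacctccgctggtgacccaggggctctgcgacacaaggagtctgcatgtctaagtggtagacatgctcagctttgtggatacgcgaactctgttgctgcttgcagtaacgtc
It holds 1 CCAAT box and 1 TATA box match and no GC box match, and no matches overlap. Among 33469 RefSeq windows of this length, 37.5% hold a CCAAT box, 14.2% a TATA box and 33.1% a GC box match. Of 37 windows of collagen genes, which cover 34 of the 43 symbols, 12 hold a CCAAT box, 4 a TATA box and 19 a GC box match. The median GC content was 59.0% over the collagen windows and 51.7% over all windows.

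**Figure D4:**
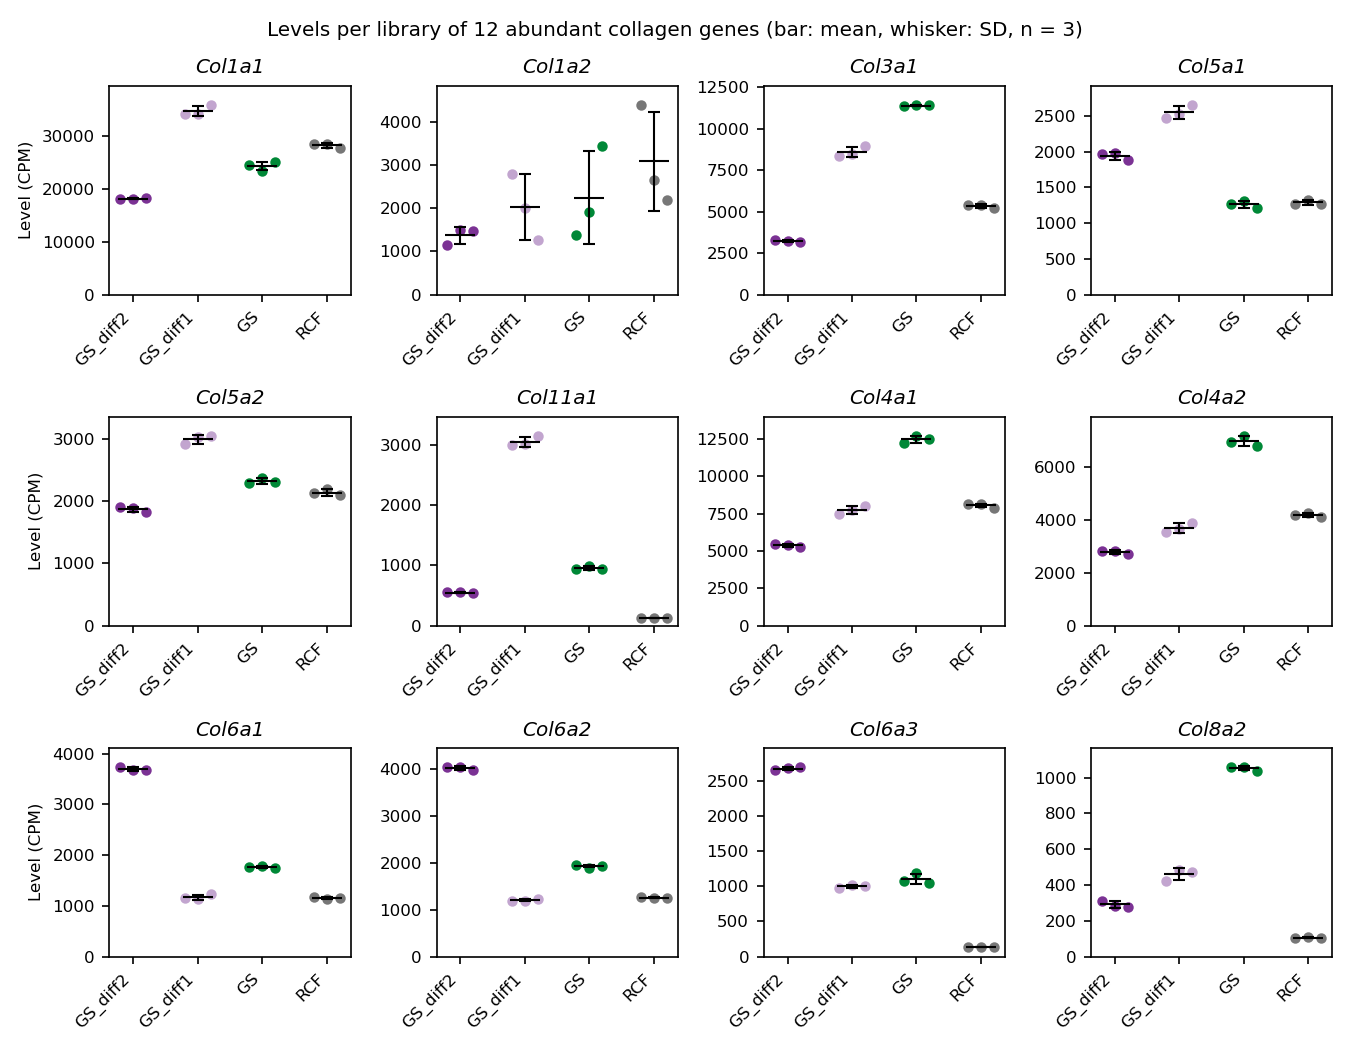
Points give the level of selected collagen genes (CPM, vertical axes from 0) in each library of the 4 groups. Col1a2 replicates spread widely inside every group, while those of the other genes shown lie close together.

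Types V and XI are minor fibrillar collagens that start fibrils and set their diameter, type V in most soft tissues and type XI mainly in cartilage. Col11a1 (chr2:216863428-217056523, plus strand, Rnor_6.0) encodes the alpha-1 chain of type XI. Its level was 550.5, 552 and 544 CPM in GS_diff2, 2998, 3015 and 3153 in GS_diff1, 943, 987 and 941 in GS, and 123, 121 and 119.8 in RCF. The groups did not overlap, with GS_diff1 highest, then GS, GS_diff2 and RCF. GS_diff1 was 3.19-fold above GS (log2 1.67 ± 0.03 SE, adjusted p = 1.77e-29), GS_diff2 was 1.74-fold below GS (log2 -0.80 ± 0.03 SE, adjusted p = 1.05e-21), and GS was 7.89-fold above RCF (log2 2.98 ± 0.03 SE, adjusted p = 1.81e-35).

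The promoter of Col11a1 is printed because this gene had the largest difference between the media among fibrillar chains of at least 100 CPM. Its RefSeq window in GRCr8 is chr2:204508886-204509185, plus strand, and capitals mark the same 3 motifs.
Col11a1: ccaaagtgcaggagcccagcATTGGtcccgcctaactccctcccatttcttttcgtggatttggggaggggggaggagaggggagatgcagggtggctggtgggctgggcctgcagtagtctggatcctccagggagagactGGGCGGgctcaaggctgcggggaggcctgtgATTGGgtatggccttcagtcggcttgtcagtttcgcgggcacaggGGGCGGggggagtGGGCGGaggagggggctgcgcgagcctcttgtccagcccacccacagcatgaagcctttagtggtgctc
It holds 2 CCAAT box matches, 3 GC box matches and no TATA box match, with a GC content of 64.7%.

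Col5a1 and Col5a2 encode the main chains of type V. The Col5a1 level was 1975, 1977 and 1879.6 CPM in GS_diff2, 2469, 2535 and 2656 in GS_diff1, 1264, 1314 and 1216 in GS, and 1269, 1327 and 1274 in RCF. GS_diff1 was highest and GS_diff2 second, and GS and RCF overlapped. The difference was 1.01 ± 0.03 (SE, adjusted p = 7.26e-20) for GS_diff1 and 0.62 ± 0.03 (SE, adjusted p = 1.84e-15) for GS_diff2 against GS. For GS against RCF it was -0.03 ± 0.03 (SE, adjusted p = 0.416), and the call arose (-0.13, adjusted p = 0.0013) when libraries were scaled by their totals alone.

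Col5a2 followed Col5a1 in GS_diff1 and not in GS_diff2. Its level was 1898, 1881 and 1823 CPM in GS_diff2, 2915, 3023 and 3047 in GS_diff1, 2285, 2378 and 2313 in GS, and 2124, 2198 and 2090.2 in RCF. It was higher in GS_diff1 than in GS by 0.37 ± 0.02 (SE, adjusted p = 9.40e-14) and lower in GS_diff2 than in GS, at -0.32 ± 0.03 (SE, adjusted p = 2.39e-12). For GS against RCF it was higher by 0.12 ± 0.02 (SE, adjusted p = 8.23e-05), a call lost with library totals alone (0.02, adjusted p = 0.441). The ratio of Col5a1 to Col5a2 per length was 0.710 to 0.724 in GS_diff2, 0.577 to 0.600 in GS_diff1, 0.362 to 0.381 in GS and 0.411 to 0.420 in RCF. The ratio of Col11a1 to Col5a1, which form mixed fibrils, was 0.236 to 0.245 in GS_diff2, 1.01 to 1.03 in GS_diff1, 0.633 to 0.656 in GS and 0.0774 to 0.0821 in RCF.

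The remaining fibrillar rows were less abundant. Col5a3, a further type V chain, averaged 94.0 ± 4.49 CPM in GS_diff2, 84.2 ± 0.941 in GS_diff1, 69.2 ± 4.90 in GS and 113 ± 4.45 in RCF, and was lower in GS than in RCF, at -0.71 ± 0.05 (SE, adjusted p = 1.35e-13). Col27a1, a cartilage collagen with a shortened helix, had 3.78, 4.55 and 4.23 CPM in GS_diff2, 17.2, 18.7 and 21.5 in GS_diff1, 1.88, 3.41 and 3.02 in GS, and 11.7, 11.9 and 11.7 in RCF. GS libraries were lowest and GS_diff1 libraries highest. It was 6.95-fold higher in GS_diff1 than in GS (log2 2.80 ± 0.17 SE, adjusted p = 9.91e-15) and 4.29-fold lower in GS than in RCF (log2 -2.10 ± 0.17 SE, adjusted p = 5.18e-12). For GS_diff2 against GS the difference was 0.61, and without GS replicate 1 it was 0.38 (adjusted p = 0.0547).

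Col2a1, the chain of cartilage type II collagen, was scarce, with 0, 0 and 3 counts in GS_diff2, 112, 98 and 131 in GS_diff1, 22, 12 and 6 in GS and 4, 3 and 3 in RCF. GS_diff1 libraries stood above the rest, at a mean of 5.95 CPM against 0.696 CPM in GS (log2 3.05 ± 0.41 SE, adjusted p = 1.39e-07). Its level in GS_diff2 was at the floor, so no fold is given for it. Col11a2, the alpha-2 chain of type XI, averaged 2.97 ± 0.0497 CPM in GS_diff2, 5.80 ± 0.245 in GS_diff1, 2.36 ± 0.630 in GS and 7.97 ± 0.975 in RCF. It was higher in GS_diff1 than in GS by 1.30 ± 0.21 (SE, adjusted p = 3.11e-06). Col24a1 averaged under 1 CPM in every group. Among the chondrocyte markers, Sox9 averaged 68.6 CPM in GS_diff2, 126 in GS_diff1, 51.8 in GS and 12.8 in RCF, and Acan 317, 97.7, 21.8 and 0.348 CPM in the same groups. The other members of the list did not all move with these. In GS_diff1 against GS, 4 of the 7 tested markers were higher and 2 lower (32.0% and 32.3% of all genes), the lower ones being Comp (log2 -1.18 ± 0.09 SE, adjusted p = 1.29e-09) and Sox5 (log2 -0.42 ± 0.17 SE, adjusted p = 0.0293). In GS against RCF, 6 were higher and 1 lower (35.0% and 36.3% of all genes). The lower one was the scarce Matn3, at 0.331 CPM in GS and 1.59 CPM in RCF (log2 -2.21 ± 0.48 SE, adjusted p = 0.000169). In GS_diff2 against GS_diff1, Acan alone was higher and 5 were lower (32.1% and 31.5% of all genes). The part of these markers in the levels of Col2a1, Col11a1 and Col27a1 was not tested.

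Type IV collagen is built from 6 chains that form 3 kinds of molecule. The common one joins 2 alpha-1 chains and 1 alpha-2 chain and lies in nearly every basement membrane. Col4a1 (chr16:83522162-83632153, plus strand) and Col4a2 (chr16:83387364-83438561, minus strand, both Rnor_6.0) encode them. The Col4a1 level was 5487, 5400.5 and 5277 CPM in GS_diff2, 7466, 7755 and 8024 in GS_diff1, 12222, 12714 and 12535 in GS, and 8119.9, 8135 and 7912 in RCF. The Col4a2 level was 2818, 2808 and 2702 CPM in GS_diff2, 3519, 3659.8 and 3885 in GS_diff1, 6917, 7159 and 6799 in GS, and 4193, 4249.7 and 4089 in RCF. Both were highest in GS, and neither overlapped between GS and any other group. For Col4a1, GS_diff1 and RCF libraries overlapped. GS was above RCF by 0.63 ± 0.02 (SE, adjusted p = 4.56e-20) for Col4a1 and 0.74 ± 0.03 (SE, adjusted p = 1.32e-14) for Col4a2. GS_diff2 was below GS, at -1.21 ± 0.02 (SE, adjusted p = 1.05e-26) for Col4a1 and -1.33 ± 0.03 (SE, adjusted p = 9.47e-19) for Col4a2. GS_diff1 was also below GS, at -0.69 ± 0.02 (SE, adjusted p = 9.73e-21) for Col4a1 and -0.92 ± 0.03 (SE, adjusted p = 5.02e-16) for Col4a2. Their ratio per length stayed narrow, at 1.44 to 1.47 in GS_diff2, 1.55 to 1.59 in GS_diff1, 1.33 to 1.38 in GS and 1.44 to 1.45 in RCF.

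The promoter window of Col4a1 is printed because the 2 genes lie head to head and moved together. In GRCr8 their RefSeq start sites are on opposite strands and 77 bases apart, and their windows share 176 bases. The Col4a1 window is chr16:84885347-84885646, plus strand, with the same motifs in capitals.
Col4a1: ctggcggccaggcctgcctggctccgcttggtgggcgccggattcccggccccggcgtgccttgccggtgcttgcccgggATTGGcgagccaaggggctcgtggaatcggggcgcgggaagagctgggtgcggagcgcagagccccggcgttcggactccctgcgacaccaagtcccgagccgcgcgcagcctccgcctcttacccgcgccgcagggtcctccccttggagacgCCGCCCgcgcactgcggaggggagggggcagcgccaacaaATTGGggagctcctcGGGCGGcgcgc
It holds 2 CCAAT box and 2 GC box matches, no TATA box match, and a GC content of 75.0%. The deposited gene models, in the other build, place the 2 gene starts 83601 bases apart, so this neighbourhood rests on the RefSeq annotation.

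The less common chains were lower in GS than in RCF. Col4a5, part of the networks of kidney, lung and smooth muscle, had 65.5, 63.9 and 66.2 CPM in GS_diff2, 126, 131 and 133 in GS_diff1, 132, 148 and 139 in GS, and 502, 511 and 481 in RCF. GS libraries stood 3.57-fold below RCF (log2 -1.84 ± 0.04 SE, adjusted p = 6.42e-27), and GS_diff2 stood below GS, at -1.10 ± 0.04 (SE, adjusted p = 2.22e-20). Between GS_diff1 and GS, whose libraries overlapped, the difference was -0.10 ± 0.04 (SE, adjusted p = 0.0248), and the call was lost with library totals alone (-0.04, adjusted p = 0.389), with limma-voom (adjusted p = 0.0629), with only the libraries of both groups (adjusted p = 0.0658) and without GS replicate 2 or 3 or GS_diff1 replicate 1 or 2 (-0.05 to -0.10, adjusted p = 0.0561 to 0.263). Col4a4, a chain best known from the kidney filter, had 2.13, 2.10 and 3.24 CPM in GS_diff2, 1.19, 1.41 and 1.22 in GS_diff1, 12.8, 14.2 and 11.5 in GS, and 43.9, 44.4 and 44.2 in RCF. It was lower in GS than in RCF (log2 -1.78 ± 0.12 SE, adjusted p = 2.25e-14), in GS_diff1 than in GS (log2 -3.33 ± 0.15 SE, adjusted p = 8.15e-18) and in GS_diff2 than in GS (log2 -2.37 ± 0.14 SE, adjusted p = 2.10e-15), and higher in GS_diff2 than in GS_diff1 (log2 0.96 ± 0.18 SE, adjusted p = 2.97e-05). Col4a6 averaged 1.20 ± 0.687 CPM in GS_diff2, 3.25 ± 0.928 in GS_diff1, 4.87 ± 0.466 in GS and 9.69 ± 0.629 in RCF. It was lower in GS than in RCF, at -0.99 ± 0.27 (SE, adjusted p = 0.00255) and did not pass the test in GS_diff1 against GS at -0.58 ± 0.28 (SE, adjusted p = 0.0793). DESeq2 did call that difference at an adjusted p of 0.0371.

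Type VI collagen forms beaded filaments around cells from 3 chains, alpha-1, alpha-2 and alpha-3. Col6a1 had 3737, 3669.7 and 3673 CPM in GS_diff2, 1155, 1135 and 1227 in GS_diff1, 1759.7, 1783 and 1748 in GS, and 1177, 1128 and 1150.4 in RCF. Col6a2 had 4052, 4054 and 3985 CPM in GS_diff2, 1198, 1197 and 1239 in GS_diff1, 1959, 1902 and 1944 in GS, and 1264, 1254 and 1262 in RCF. Both were highest in GS_diff2 and second in GS, while GS_diff1 and RCF overlapped for Col6a1 and lay close together for Col6a2. GS_diff2 was above GS by 1.07 ± 0.03 (SE, adjusted p = 5.30e-25) for Col6a1 and 1.06 ± 0.02 (SE, adjusted p = 1.86e-26) for Col6a2, while GS_diff1 was below GS, at -0.59 ± 0.03 (SE, adjusted p = 2.24e-18) and -0.68 ± 0.02 (SE, adjusted p = 2.12e-21). GS was above RCF by 0.61 ± 0.03 (SE, adjusted p = 4.77e-19) for Col6a1 and 0.62 ± 0.02 (SE, adjusted p = 1.07e-20) for Col6a2. Per length the ratio of Col6a1 to Col6a2 was 1.09 to 1.11 in GS_diff2, 1.14 to 1.19 in GS_diff1, 1.08 to 1.12 in GS and 1.08 to 1.12 in RCF, so these chains kept step in all groups.

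Col6a3 (chr9:97926787-98004546, minus strand, Rnor_6.0), the long alpha-3 chain, did not keep step in RCF. Its level was 2659, 2684 and 2705 CPM in GS_diff2, 980.5, 1015 and 1008 in GS_diff1, 1084, 1189.7 and 1052 in GS, and 137, 139 and 132 in RCF. RCF libraries were far below the others, and GS was 8.15-fold above RCF (log2 3.03 ± 0.04 SE, adjusted p = 1.32e-26). GS_diff2 was 2.42-fold above GS (log2 1.28 ± 0.03 SE, adjusted p = 7.81e-20), and GS_diff1 was slightly below GS (log2 -0.15 ± 0.03 SE, adjusted p = 0.000539). That last difference was -0.08 without GS replicate 2 (adjusted p = 0.00585). The ratio of Col6a3 to Col6a1 per length was 0.200 to 0.207 in GS_diff2, 0.230 to 0.251 in GS_diff1, 0.169 to 0.187 in GS and 0.0321 to 0.0346 in RCF. The alternative chains Col6a4, Col6a5 and Col6a6 were not tested, and none averaged above 0.423 CPM in a group.

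Type VIII collagen makes a hexagonal network under vascular endothelium and in the cornea, from the chains Col8a1 and Col8a2. Col8a2 changed much more than its partner. Its level was 313, 285 and 278 CPM in GS_diff2, 421, 482 and 475 in GS_diff1, 1059, 1058 and 1038 in GS, and 105, 108 and 103 in RCF, highest in GS and lowest in RCF without overlap. GS was 9.99-fold above RCF (log2 3.32 ± 0.05 SE, adjusted p = 5.86e-17), and GS_diff2 was 3.60-fold below GS (log2 -1.85 ± 0.05 SE, adjusted p = 4.55e-14). Col8a1 had 1209.7, 1197 and 1187 CPM in GS_diff2, 820.4, 846 and 853 in GS_diff1, 783, 812 and 775 in GS, and 831, 827 and 809.9 in RCF, highest in GS_diff2, at 0.60 ± 0.03 (SE, adjusted p = 1.16e-18) against GS. GS and RCF overlapped for Col8a1, and the call of -0.06 ± 0.03 (SE, adjusted p = 0.0452) between them was lost without GS replicate 1 or 3, RCF replicate 1 or 2, GS_diff1 replicate 2 or any GS_diff2 replicate (-0.04 to -0.06, adjusted p = 0.0559 to 0.187). The ratio of Col8a1 to Col8a2 per length was 3.74 to 4.14 in GS_diff2, 1.70 to 1.89 in GS_diff1, 0.716 to 0.743 in GS and 7.45 to 7.65 in RCF, so RCF and GS stood at its ends.

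**Figure D5:**
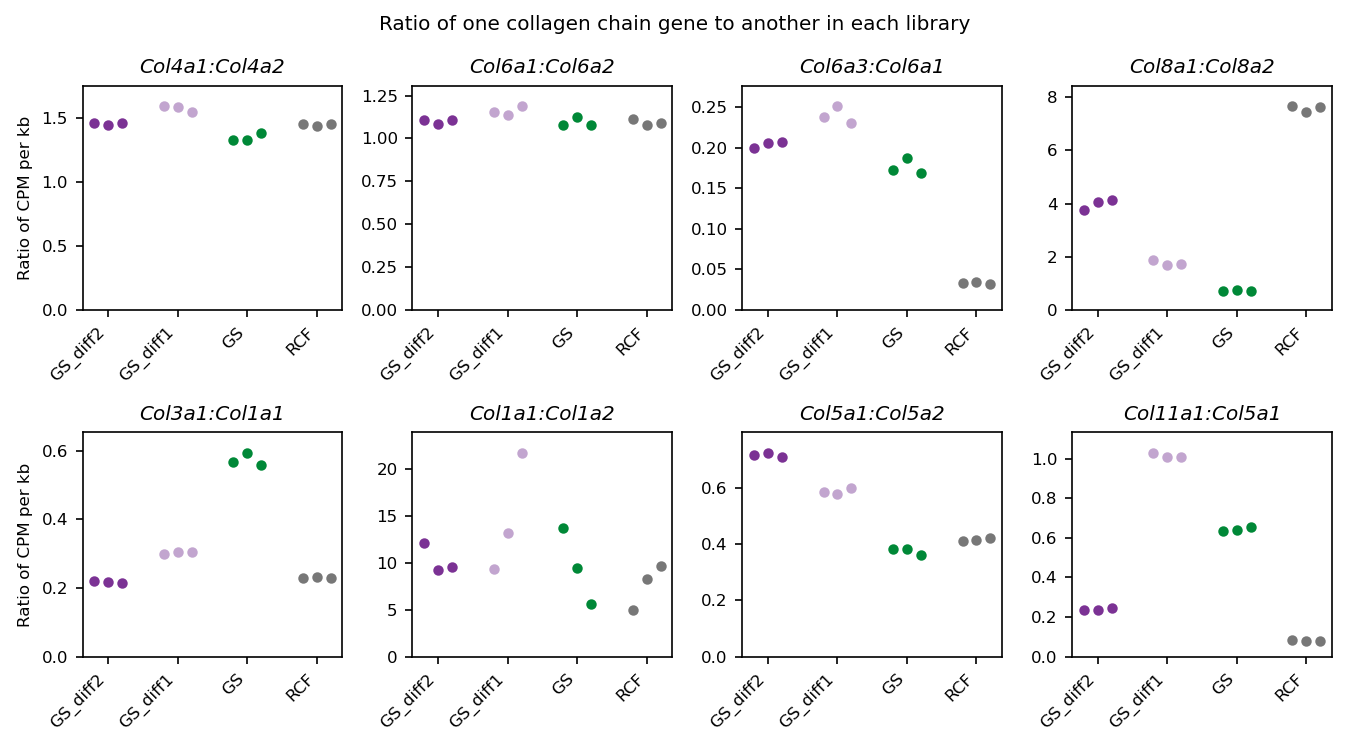
Points give the ratio of one collagen chain gene to another per transcript length in each library. Col4a1:Col4a2 and Col6a1:Col6a2 vary little across the groups, while Col6a3:Col6a1 is 0.0321 to 0.0346 in RCF and Col8a1:Col8a2 is 0.716 to 0.743 in GS.

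Types XII, XIV, XVI and XX are fibril-associated collagens with interrupted helices, which sit on fibril surfaces. Col12a1 had 351, 369 and 374 CPM in GS_diff2, 989.7, 985 and 956 in GS_diff1, 612, 692 and 596 in GS, and 335, 340.1 and 337 in RCF, highest in GS_diff1. It was higher in GS_diff1 than in GS by 0.63 ± 0.04 (SE, adjusted p = 3.12e-10) and lower in GS_diff2 than in GS, at -0.80 ± 0.04 (SE, adjusted p = 9.81e-12). Col14a1, its close relative, had 17.4, 18.8 and 17.5 CPM in GS_diff2, 236, 225 and 226 in GS_diff1, 129.9, 139.6 and 133 in GS, and 268, 275 and 272 in RCF. RCF and GS_diff1 stood high and GS_diff2 was far below every other group. The level in GS_diff2 was 7.48-fold below GS (log2 -2.90 ± 0.05 SE, adjusted p = 9.80e-30) and 12.8-fold below GS_diff1 (log2 -3.67 ± 0.05 SE, adjusted p = 2.13e-32). Between GS and RCF the difference was -1.02 ± 0.04 (SE, adjusted p = 1.05e-20).

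Col16a1 had 113, 122 and 117 CPM in GS_diff2, 54.7, 55.8 and 55.4 in GS_diff1, 129.6, 138 and 131 in GS, and 115, 119 and 109 in RCF, with GS_diff1 below all other groups (log2 -1.27 ± 0.05 SE against GS, adjusted p = 1.69e-20). For GS_diff2 against GS the difference was -0.18 ± 0.04 (SE, adjusted p = 0.000669), and the call was lost with library totals alone (-0.09, adjusted p = 0.0598). Col20a1 was low, with means of 16.3 ± 0.698 CPM in GS_diff2, 3.78 ± 1.13 in GS_diff1, 3.86 ± 0.970 in GS and 7.33 ± 1.38 in RCF. It was 4.20-fold higher in GS_diff2 than in GS (log2 2.07 ± 0.21 SE, adjusted p = 1.89e-09). Type IX, a cartilage collagen bound to type II fibrils, was near the floor. Col9a1 had 0 counts in all 12 libraries, Col9a2 averaged at most 2.32 CPM in a group, and Col9a3 averaged 3.39 ± 0.613 CPM in GS_diff1 against 1.24 ± 0.428 CPM in GS (log2 1.45 ± 0.36 SE, adjusted p = 0.000841). The lower Col9a2 level in GS_diff2 than in GS_diff1 (log2 -1.22 ± 0.42 SE, adjusted p = 0.0121) was not called without GS_diff1 replicate 2 (-0.84, adjusted p = 0.119) or without GS_diff2 replicate 3 (-0.85, adjusted p = 0.0864).

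Types XV and XVIII are basement membrane proteoglycans of the multiplexin group, and the end fragment of type XVIII is endostatin. Col18a1 had 517, 519 and 504 CPM in GS_diff2, 108, 116 and 120.5 in GS_diff1, 230.4, 225 and 228 in GS, and 67.2, 71.0 and 63.2 in RCF. GS_diff2 was highest, then GS, GS_diff1 and RCF, without overlap. In GS_diff2 its direction from GS was opposite to that of the type IV genes. GS_diff2 was 2.25-fold above GS (log2 1.17 ± 0.04 SE, adjusted p = 7.05e-22), GS_diff1 was 1.98-fold below GS (log2 -0.99 ± 0.04 SE, adjusted p = 1.98e-19), and GS was 3.39-fold above RCF (log2 1.76 ± 0.04 SE, adjusted p = 1.11e-25). Col15a1 had 78.1, 65.3 and 74.8 CPM in GS_diff2, 26.2, 20.5 and 35.7 in GS_diff1, 30.5, 28.0 and 23.7 in GS, and 15.8, 6.87 and 13.4 in RCF, with wide spread between replicates. It was higher in GS_diff2 than in GS by 1.40 ± 0.27 (SE, adjusted p = 0.00151) and in GS than in RCF by 1.18 ± 0.30 (SE, adjusted p = 0.00652). How reads were divided between it and a second locus annotated as the same protein is not given, and with the counts of that locus added the difference between GS and RCF was 0.71 (adjusted p = 0.00996).

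Among the membrane-anchored types, Col23a1 changed most. Its row ENSRNOG00000003349 had 41.1, 34.6 and 33.3 CPM in GS_diff2, 1.57, 2.57 and 1.68 in GS_diff1, 14.1, 18.2 and 17.8 in GS, and 0.591, 0.410 and 0.378 in RCF. The row ENSRNOG00000046785 had 46.4, 40.5 and 34.8 CPM in GS_diff2, 3.23, 3.58 and 2.78 in GS_diff1, 22.8, 17.7 and 25.2 in GS, and 0.844, 0.975 and 1.37 in RCF. In both rows GS_diff2 was highest and GS second, with GS_diff1 and RCF far lower. For the row ENSRNOG00000003349 the difference was 5.14 ± 0.20 (SE, adjusted p = 3.25e-19) for GS against RCF, -3.10 ± 0.16 (SE, adjusted p = 7.29e-16) for GS_diff1 against GS and 1.13 ± 0.13 (SE, adjusted p = 1.77e-08) for GS_diff2 against GS. The other row gave 4.36, -2.77 and 0.89 for the same comparisons. The rows lie at different positions of chromosome 10, and how reads were divided between them is not given, so they are not independent. Col17a1, of the junction between epithelium and its basement membrane, averaged 11.4 ± 1.38 CPM in GS_diff2, 7.73 ± 1.38 in GS_diff1, 7.51 ± 0.540 in GS and 11.4 ± 1.80 in RCF. Col7a1, which forms the anchoring fibrils of skin, averaged 4.59 ± 0.800, 1.13 ± 0.297, 0.214 ± 0.186 and 5.37 ± 1.07 CPM in the same groups, so GS was lowest (log2 -4.58 ± 0.43 SE against RCF, adjusted p = 5.97e-10). The GS libraries held 7, 0 and 5 counts of Col7a1, near the floor, so the size of that difference is uncertain. Col10a1, Col13a1, Col19a1, Col22a1, Col25a1, Col26a1 and Col28a1 were not tested, and each averaged at most 0.150 CPM in a group.

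Set against RCF directly, the medium groups kept some of these differences. In GS_diff2 against RCF, 13 of the 33 tested rows were higher and 15 lower, while 72.5% of all genes were called, 37.1% higher and 35.4% lower. In GS_diff1 against RCF, 15 were higher and 14 lower, while 75.4% of all genes were called, 38.0% higher and 37.4% lower. By at least 2-fold, 10 rows were higher and 9 lower in GS_diff2 (16.6% and 12.5% of all genes), and 9 higher and 6 lower in GS_diff1 (16.7% and 15.9%). All 5 type IV rows were lower in both comparisons. Fibrillar rows went 2 higher and 8 lower in GS_diff2, and 7 higher and 3 lower in GS_diff1. Col4a1 in GS_diff1 differed little from RCF (log2 -0.06, adjusted p = 0.0288), and leaving out any single library of GS or GS_diff1 other than GS_diff1 replicate 3, or RCF replicate 1 or 2, ended that call (-0.03 to -0.05, adjusted p = 0.0555 to 0.252). Col1a1 differed from RCF in GS_diff2 (log2 -0.64 ± 0.02 SE, adjusted p = 8.83e-18) and in GS_diff1 (log2 0.30 ± 0.02 SE, adjusted p = 2.10e-11). Col6a3 differed from RCF by 4.30 ± 0.04 (adjusted p = 2.87e-29) in GS_diff2 and by 2.88 ± 0.04 (adjusted p = 2.15e-26) in GS_diff1. Col1a2 was called in GS_diff2 against RCF alone (log2 -1.17 ± 0.43 SE, adjusted p = 0.0361). Leaving out RCF replicate 1 or 2, GS_diff1 replicate 2 or any GS_diff2 replicate ended that call (adjusted p = 0.0515 to 0.133).

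Collagen chains are hydroxylated and glycosylated in the endoplasmic reticulum, folded, exported, trimmed and crosslinked before they work, and cells sense them through dedicated receptors. Of 15 tested genes of hydroxylation and glycosylation, 11 were higher and 2 lower in GS_diff2 against GS (33.3% and 33.7% of all genes), 10 higher and 3 lower in GS_diff1 against GS (32.0% and 32.3%), 5 higher and 7 lower in GS_diff2 against GS_diff1 (32.1% and 31.5%), and 3 higher and 8 lower in GS against RCF (35.0% and 36.3%). In GS against RCF, the 73.3% called was near the 71.3% of all genes. P3h2, a prolyl 3-hydroxylase that acts on type IV collagen, averaged 32.7 ± 3.07 CPM in GS_diff2, 75.0 ± 0.939 in GS_diff1, 213 ± 3.64 in GS and 4.57 ± 0.188 in RCF, the same order as Col4a1 and Col4a2 among the 3 groups of GS origin. It was higher in GS than in RCF by 5.54 ± 0.07 (SE, adjusted p = 1.06e-32) and lower in GS_diff2 than in GS, at -2.70 ± 0.05 (SE, adjusted p = 2.45e-27). The prolyl 4-hydroxylase subunit P4ha2 was higher in GS_diff2, at 513 ± 6.27 CPM, than in GS_diff1, at 184 ± 8.60 CPM (log2 1.48 ± 0.03 SE, adjusted p = 1.30e-25).

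Of 12 tested genes of folding and secretion, none was higher and 9 were lower in GS_diff2 against GS_diff1 (32.1% and 31.5% of all genes). The other comparisons were less one-sided, with 5 higher and 6 lower in GS_diff2 against GS (33.3% and 33.7%), 8 and 4 in GS_diff1 against GS (32.0% and 32.3%), and 6 and 2 in GS against RCF (35.0% and 36.3%). Serpinh1, the collagen chaperone HSP47, averaged 2593 ± 8.43 CPM in GS_diff2 and 4653 ± 28.0 CPM in GS_diff1 (log2 -0.84 ± 0.02 SE, adjusted p = 3.03e-24). It averaged 3916 ± 113 CPM in GS and 2008 ± 13.9 CPM in RCF, higher in GS by 0.96 ± 0.02 (SE, adjusted p = 6.15e-26). Creb3l1, a transcription factor that drives procollagen secretion, averaged 265 ± 5.07 CPM in GS_diff2, 618 ± 20.0 in GS_diff1, 722 ± 20.8 in GS and 142 ± 5.25 in RCF. It was lower in GS_diff2 than in GS_diff1 (log2 -1.22 ± 0.03 SE, adjusted p = 6.36e-24) and higher in GS than in RCF (log2 2.35 ± 0.03 SE, adjusted p = 5.19e-31). Of 7 tested genes of propeptide processing, 2 were higher and 5 lower in GS against RCF (35.0% and 36.3% of all genes), and Adamts2, which trims the amino end of procollagen, was lower in GS, at -1.10 ± 0.04 (SE, adjusted p = 6.05e-22).

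Of 7 crosslinking genes, 4 were higher and 3 lower in GS_diff2 against GS (33.3% and 33.7% of all genes). The lysyl oxidase relative Loxl3 averaged 712 ± 3.34 CPM in GS_diff2 and 158 ± 3.02 CPM in GS (log2 2.18 ± 0.03 SE, adjusted p = 2.05e-30), while Loxl2 averaged 169 ± 3.42 and 368 ± 19.3 CPM in the same groups (log2 -1.13 ± 0.03 SE, adjusted p = 1.53e-22). Of 8 tested receptors, 3 were higher and 5 lower in GS against RCF (35.0% and 36.3% of all genes), with the integrin chain Itga11 higher by 2.49 ± 0.05 (SE, adjusted p = 1.21e-26) and the tyrosine kinase receptor Ddr1 lower, at -1.46 ± 0.04 (SE, adjusted p = 1.63e-23). Mrc2, an endocytic receptor that takes up collagen, was higher in GS_diff2 than in GS_diff1 by 1.59 ± 0.03 (SE, adjusted p = 5.63e-27).

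Some basement membrane partners of type IV collagen had its direction and others did not. The laminin chains Lama1, Lamb1 and Lamc1, which form the laminin of the early embryo, averaged 11843 ± 626, 8672 ± 192 and 11535 ± 364 CPM in GS, against 4.09 ± 0.0319, 984 ± 9.69 and 1602 ± 14.6 CPM in RCF. Lama1 was lower in GS_diff2 than in GS (log2 -1.73 ± 0.03 SE, adjusted p = 7.42e-28) and in GS_diff1 than in GS (log2 -1.67 ± 0.03 SE, adjusted p = 2.28e-27), as Col4a1 and Col4a2 were. Nid2, which links laminin to type IV collagen, ran the other way, with 308 ± 3.43 CPM in GS_diff2, 290.1 ± 3.71 in GS_diff1, 56.3 ± 1.45 in GS and 151 ± 1.31 in RCF. Nid2 was higher in GS_diff2 than in GS (log2 2.45 ± 0.04 SE, adjusted p = 1.12e-30) and lower in GS than in RCF (log2 -1.43 ± 0.04 SE, adjusted p = 6.29e-25). Of the 12 tested partners, 6 were higher and 5 lower in GS_diff2 against GS (33.3% and 33.7% of all genes), 3 higher and 8 lower in GS_diff1 against GS (32.0% and 32.3%), and 6 higher and 4 lower in GS against RCF (35.0% and 36.3%). In GS_diff2 against GS_diff1, 9 partners were higher and 2 lower (32.1% and 31.5%), whereas 1 type IV row was higher and 4 were lower. Of the 2 lower partners, Lama1 differed by only -0.06 ± 0.03 (SE, adjusted p = 0.0361). With library totals alone, DESeq2 or limma-voom, only 1 partner was lower. The same held without GS_diff1 replicate 1 or 3, or without GS_diff2 replicate 1 or 2.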

How the data were processed

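Total RNA from 12 cultures was purified with an RNeasy kit and made into libraries with an Ovation RNA-seq kit, per the labels' protocols. The authors deposited read counts per gene as whole numbers without normalizing them. The submitters' processing notes list Bowtie 0.12.2 and, with no role for either, the builds mm8 and Rnor_6.0. For the counting program, the annotation release and strand, the sources used here give nothing, so reads of overlapping or near-identical genes could not be separated. The Bowtie version named does not align across introns, and the handling of junction reads is unknown.

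Here the counts were scaled with TMM factors, filtered with filterByExpr and fitted in edgeR 4.0.16 (R 4.3.3), using a quasi-likelihood model of the 4 groups over all 12 libraries. Comparisons were two-sided, and p-values were adjusted by Benjamini-Hochberg over 14399 tested genes, with a threshold of 0.05. Standard errors come from the test statistic. CPM per kb divides CPM by the deposited gene length. Replicates of a group differed by 4.54 to 7.87 times the chi-square per degree of freedom that sampling noise gives, so none was counted as a repeat. Alternatives were DESeq2 1.42.0, limma-voom (limma 3.58.1), other scalings and filters, fits of only 2 groups, a replicate block, and leaving out each library. The steps were tested on simulated data.

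The rule for named collagens took, in each main comparison, up to 4 of the largest rises and falls with at least 10 CPM and non-overlapping libraries, besides the abundant chains. Supporting genes came from 6 lists of collagen biosynthesis, receptors and basement membrane and 7 marker lists. The members, lists and tests were chosen with earlier results of these data known.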

Additional observations from a re-analysis of the deposited data

Results flagged for a closer look

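The medium groups share the GS libraries. Among collagen rows averaging at least 10 CPM in GS, GS_diff1 or GS_diff2, 11 were called in opposite directions from GS in GS_diff2 and GS_diff1. The scarcer Col2a1 and Col9a3 were also called in opposite directions and are left out here. For the 11 rows, a call in the direct test of GS_diff2 against GS_diff1 was part of the rule that chose them. The values below are GS_diff2 minus GS_diff1 on the log2 scale. Higher in GS_diff2 were Col6a2 by 1.73, Col6a1 by 1.66 and Col6a3 by 1.42, the chains of type VI collagen. Col18a1 was higher by 2.16. The Col23a1 rows were higher by 3.66 for ENSRNOG00000046785 and by 4.22 for ENSRNOG00000003349. Lower in GS_diff2 were Col1a1 at -0.94, Col5a2 at -0.68 and Col11a1 at -2.48 among the fibrillar chains. The fibril-associated chains Col12a1 and Col14a1 were at -1.42 and -3.67. The largest adjusted p among these 11 rows was 1.98e-15 by edgeR's quasi-likelihood test. Because the rule required a call, these p-values are no separate support for the pattern. The libraries of GS_diff2 and GS_diff1 did not overlap in any of these rows, which is no separate support either. The share of all genes without such overlap was not counted. Of all tested genes, 63.7% were called between GS_diff2 and GS_diff1, 67.0% in GS_diff2 against GS and 64.3% in GS_diff1 against GS. How many of all genes meet the same rule was not counted, so the pattern is not shown to be particular to collagens.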

How the results depend on the processing

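Counts of collagen rows called higher or lower stayed within 1.5 times the reported count under every alternative run. No collagen row that was called changed direction. Without 1 library the calls of GS against RCF were 17 higher in each case and 11 to 13 lower. The replicate numbers gave no sign of pairing. Same-numbered libraries of different groups, taken as deviations from their group means, correlated at -0.045 to 0.0759, and other pairs at -0.0753 to 0.0462. These values cannot show whether the cultures were paired by design. A replicate block gave 17 higher and 11 lower rows in GS against RCF, 13 and 13 in GS_diff1 against GS, 14 and 17 in GS_diff2 against GS, and 14 and 18 in GS_diff2 against GS_diff1. With library totals alone the median of all genes in GS against RCF shifted to -0.126, and the summed collagen level was 49309.8 CPM in GS_diff2 and 67162.2 CPM in GS. In an alternative chosen after seeing the data, leaving Col1a1 out of the sum gave 30382 CPM in GS_diff2, 37010.0 in GS_diff1, 45725 in GS and 29200.0 in RCF, and leaving Col1a2 out gave 47149, 69728, 67839.6 and 54404 CPM in the same groups. Per length, fibrillar chains were 52.1% of summed collagen in GS_diff2 and 69.6% in RCF, type IV was 14.8% in GS_diff2, 15.0% in GS_diff1, 25.5% in GS and 20.3% in RCF, and other types were 33.1%, 9.94%, 13.9% and 10.1% in the same groups. With fits of only the 2 groups compared, 1 propeptide gene was higher in GS against RCF in place of 2, and the call of Col8a1 there was lost (-0.03, adjusted p = 0.371). The block ended 2 calls of collagen rows, those of Col8a1 in GS against RCF (adjusted p = 0.0559) and Col1a2 in GS_diff2 against RCF (adjusted p = 0.0779). The cause was not tested. Rows of few counts limit what depth can show: a difference in a row under 3 counts per library was not detectable.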

Other observations

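Rows annotated as collagen chains but named outside the rule gave values of their own. A locus annotated as the alpha-1 chain of type XV, LOC100909752, averaged 116 CPM in GS_diff2, 40.7 in GS_diff1, 26.3 in GS and 20.7 in RCF. It was higher in GS_diff2 than in GS by 2.14 on the log2 scale (edgeR adjusted p = 0.000166). A locus annotated as the alpha-3 chain of type IV, LOC100911572, averaged 1.02 CPM in GS_diff2, 0.552 in GS_diff1, 4.42 in GS and 11.5 in RCF. The log2 difference was -2.11 for GS_diff2 against GS (adjusted p = 2.80e-07), -3.02 for GS_diff1 against GS (adjusted p = 2.31e-09) and -1.37 for GS against RCF (adjusted p = 2.61e-05). Col4a4, whose product joins the alpha-3 and alpha-5 chains in 1 molecule, was lower in the same 3 comparisons.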
